A study of Mus musculus with 46 samples.

Results

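The long-projecting cells are the 136 cells whose column names begin with LPC, of 584 single cells of 7 GABAergic neuron types in the table. They fall into 9 libraries of 13 to 16 cells and come from 4 animals, which the labels number 15 to 18. The study isolated single red-fluorescent neurons from dissected slices of mouse frontal cortex, amplified their polyadenylated RNA linearly and sequenced pools of cells, in order to set GABAergic neuron types apart by what they express. All 4 animals carried Sst-Flp, Nos1-Cre and Ai65, a reporter that turns red only after both recombinases have acted. A red cell has therefore expressed both drivers at some time, which need not be the time of sampling. The animals were male, aged postnatal 28 (animals 15, 16 and 17) or 29 (animal 18), and their tissue is labelled frontal cortex with no layer.

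The other 6 types were as follows, with no experimental treatment labelled for any type. Martinotti cells (62 cells, animals 1 and 2) came from female Sst-Flp; CR-Cre; Ai65 mice at postnatal 35. Interneuron-selective cells (animals 3 and 4) came from female Vip-Flp; CR-Cre; Ai65 mice at postnatal 32, and CCK basket cells (animals 5 and 6) from male Vip-Flp; CCK-Cre; Ai65 mice at postnatal 39 and 40. PV basket cells (127 cells, animals 7 to 10) came from Pv-iresCre; Ai14 mice of both sexes at postnatal 58 to 83. Chandelier cells came from Nkx2.1-CreER; Ai14 mice given tamoxifen in utero, the deep-layer cells from males at postnatal 34 (animals 11 and 12) and the upper-layer cells (80 cells, animals 13 and 14) from females at postnatal 40 to 58, with 1 age and the reporter name Ai15 differing between libraries that carry the number 14. The long-projecting animals were the youngest, and age, sex, dissection and flow cell all follow the type, so their parts in any difference between types cannot be told apart. Upper chandelier cells were run on the same flow cell.

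Cortical neurons with both Sst and Nos1 are a sparse class known for axons that run to distant areas, for the peptides somatostatin and neuropeptide Y, and for activity during sleep. Nos1 encodes neuronal nitric oxide synthase, which makes nitric oxide from arginine; the gas activates soluble guanylate cyclase in cells nearby, and the cGMP so made acts on kinases until phosphodiesterases break it down. Neuropeptides are cut from precursors and amidated inside dense-core vesicles, and act on G-protein-coupled receptors.

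The 136 cells held 21040932 counts, from 720573 in library 3 to 4568242 in library 8, with a median of 122095 counts and 10715 genes per cell. The same 16 cell barcodes served all the libraries, each in 6 to 9 of the 9. Within a library the spread between cells was close to counting error at their depth, at a median of 1.08 to 1.19 times the sampling variance. Between libraries of an animal the median was 4.32 to 10.5 times, and between animals 9.93 times. For animal 15 the median of 4.67 was 2.66 without library 2. At the same relative spread this ratio grows with the counts per unit, so cells, libraries and animals cannot be compared by it. Cells of an animal are not separate animals, so they were summed per animal. The replicate is the animal as the labels number it, although the series' design text speaks of 4 animals and does not say of which types. Whether the values count reads or molecular tags was not stated, so the sampling variance may not be that of independent molecules. Levels are in CPM, counts scaled to a common library total, with 4 long-projecting animals given in the order 15, 16, 17 and 18, and with SD over animals.

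Library 2, 1 of the 3 libraries of animal 15, stood apart. Its summed level of 12 oligodendrocyte markers was 5013 CPM, against 54.5 to 200.2 CPM in the other 8 long-projecting libraries. Its summed level of 7 oligodendrocyte precursor markers was 103.9 CPM against a highest value of 23.1 CPM in those 8. Among the other types, interneuron-selective library 3 reached 3917 and 114 CPM of the 2 sums. Of 12 oligodendrocyte markers tested, 5 passed as higher in long-projecting cells than in the other types with library 2 and 0 of 10 without it, by edgeR's quasi-likelihood test; without it 1 was higher and 1 lower at an unadjusted p under 0.05, and DESeq2 called 1 in each direction. Sums of markers of astrocytes (32.8 to 208 CPM per library), microglia (2.69 to 39.0 CPM), vascular cells (15.2 to 52.2 CPM) and glutamatergic neurons (22.7 to 74.2 CPM) were low beside the 19238 to 29129 CPM of the 6 markers of the long-projecting cells, most of it Npy. Their library medians were 78.0, 9.62, 34.0 and 37.6 CPM here, and 153, 9.42, 28.8 and 84.0 CPM in the other types. For oligodendrocyte markers the medians were 132.9 CPM here and 65.5 CPM in the other types. In summed RNA, fewer cells of a type and less RNA per cell cannot be told apart. The part of oligodendrocyte RNA in other results was not tested gene by gene, and the counts of called genes, over all genes and by list, are also given without library 2 where they moved in the edgeR fit.

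All 6 markers given for these cells were higher in long-projecting cells than in the mean of the other 6 types, beside 9.71% of the 15533 genes tested that were called higher and 3.40% called lower. The contrast sets the mean log2 level of the 4 animals against the average of the 6 types' log2 levels, and a gene is called at an adjusted p under 0.05. Sst, the somatostatin precursor, stood at 2114, 2904, 1994 and 2625 CPM (2409 ± 429, SD, n = 4), and the only other type above 2 CPM was Martinotti at 1451 CPM. Nos1 was at 146, 140, 160 and 143 CPM (147 ± 8.83), and the highest of the 12 other replicates was 31.6 CPM in deep chandelier cells. Both genes drive the recombinases that made these cells red, so these levels check the labels, and no animal fell outside them.

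Npy, the neuropeptide Y precursor, reached 19188, 23779, 16683 and 19349 CPM (19749 ± 2950), 5.55 times the Martinotti mean of 3561 CPM with the remaining types at 309 CPM or less. Chodl, a membrane protein with a C-type lectin domain, was at 659, 748, 481 and 646 CPM (633 ± 111). Tacr1, the receptor of substance P, was at 1208, 891, 1030 and 886 CPM (1004 ± 152), above 177 CPM in deep and 151 CPM in upper chandelier cells. For each of these genes the long-projecting animals lay above every other replicate. Oxtr, the oxytocin receptor, was at 289, 313, 143 and 238 CPM (246 ± 75.4), with Martinotti next at 105 CPM, and animal 17 alone came near the higher Martinotti animal, at 134 CPM. In edgeR quasi-likelihood test, Benjamini-Hochberg against the mean of the other types, adjusted p ran from 1.25e-10 for Sst to 4.63e-05 for Chodl over the 6.

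**Figure D1:**
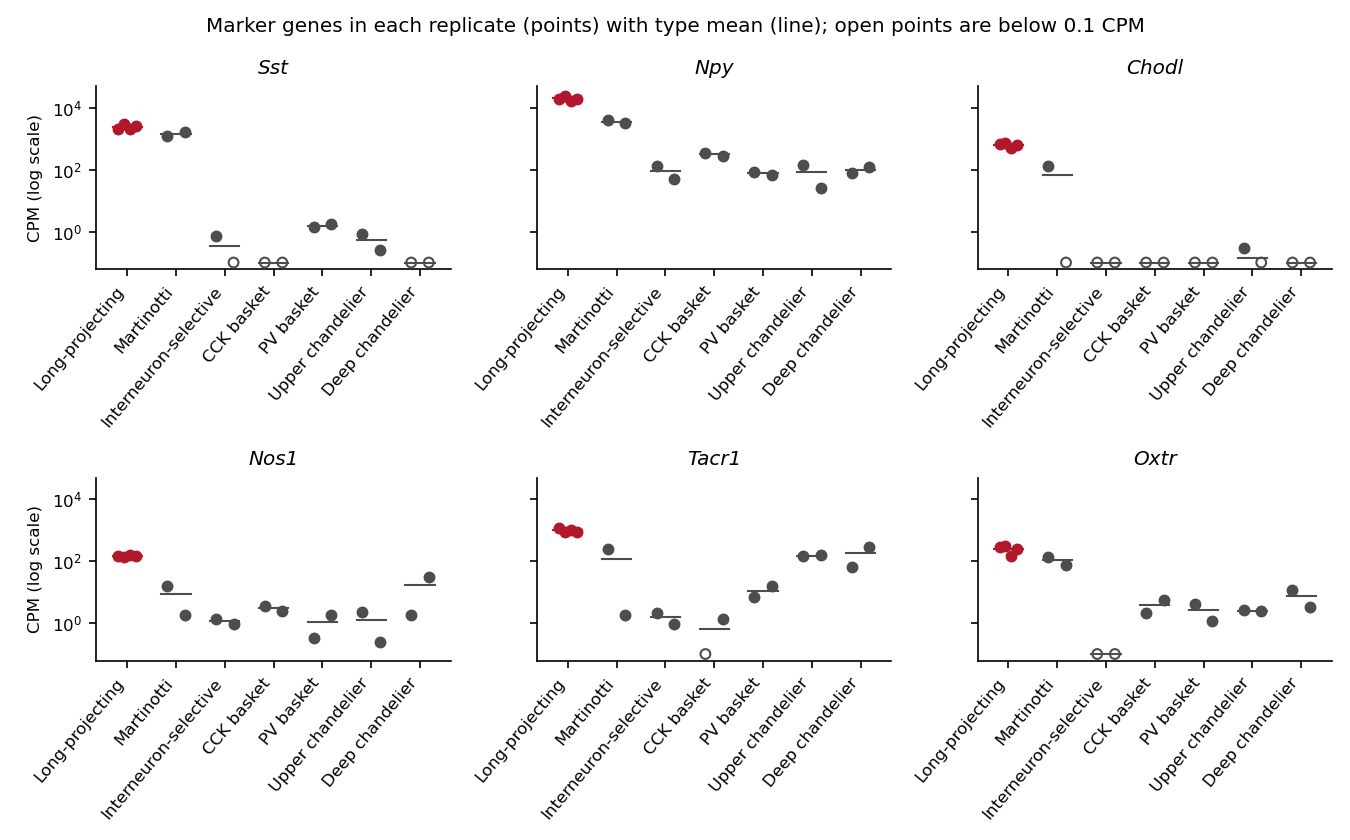
Level of the 6 markers in each replicate, in CPM on a log axis, for 4 long-projecting animals (red) and 12 replicates of the other types (grey), with type means as lines and open points for values under 0.1 CPM. Chodl and Tacr1 are high in Martinotti animal 1 and at 0 and 1.86 CPM in animal 2.

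The markers were present cell by cell as well. A count of Sst, Npy, Chodl, Tacr1 and Oxtr was found in all 136 cells (95% Wilson interval 97.2% to 100% of cells), and of Nos1 in 135. In the 127 PV basket cells, of like depth with a median of 130761 counts per cell, Chodl had a count in 0 cells (Wilson upper bound 2.94%), Nos1 in 17, Sst in 18 and Npy in 114. Shares of cells thus set Npy apart little between the types, while its mean level of 75.7 CPM in PV basket cells was far under the long-projecting level.

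The 2 Martinotti animals differed in these markers. Animal 1 had 134 CPM of Chodl and 241 CPM of Tacr1, and animal 2 had 0 and 1.86 CPM. Chodl had a count in all 16 cells of each library of animal 1 (70.2 to 272 CPM of the cell's total) and in 0 of 30 cells of animal 2, against library medians of 501 to 757 CPM in long-projecting cells. Both animals carried the same alleles, and what the Chodl in animal 1 comes from was not tested. Against Martinotti cells, 327 genes (2.11% of those tested) were higher and 280 (1.80%) lower (286 and 258 without library 2), and of the 6 markers only Npy was called (adjusted p = 0.0200, edgeR quasi-likelihood test, Benjamini-Hochberg). Without Martinotti animal 1, Chodl (adjusted p = 0.000707) and Tacr1 (0.00400) were called by the same edgeR test and Npy was not (0.0769); without animal 2 none of the 6 was, with Npy at 0.170.

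Among all genes, 1508 were higher and 528 lower in long-projecting cells (1455 and 513 without library 2), and 3979 had an unadjusted p under 0.05. DESeq2 split its calls as 1572 higher and 1093 lower, a larger share of lower genes. Against CCK basket and deep chandelier cells alone, the types from males, 1198 were higher and 763 lower. Against the types from animals of postnatal 32 to 40 the counts were 1592 and 589. Each of these counts is the background for list counts of the same comparison below, with 9.71% higher and 3.40% lower in the main test. Of the 15533 genes tested, 464 had every long-projecting animal above all 12 other replicates and 116 had every one below. Leaving out animal 15, 16 or 18 brought the calls from 2036 to 1250, 1160 and 1222.

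The genes with the widest gap to the next type, by a rule that takes only genes with no overlap between the 4 animals and the 12 other replicates, had these levels. S100a10, an annexin-binding protein that takes channels and receptors to the membrane, was at 246, 292, 217 and 343 CPM (275 ± 55.2). This was 39.4 times the next type, Martinotti. Its adjusted p was 2.31e-05 against the mean of the types and 0.0575 against Martinotti cells (edgeR quasi-likelihood test, Benjamini-Hochberg). Slc7a3, a transporter of arginine and other cationic amino acids, was at 564, 729, 392 and 568 CPM (563 ± 138), 28.4 times the interneuron-selective mean. None of these animals came near another replicate, whose highest values were 13.6 CPM for S100a10 and 35.0 CPM for Slc7a3.

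Hcrtr1, an orexin receptor, followed with 50.8, 90.6, 23.9 and 49.5 CPM (53.7 ± 27.5), 21.6 times Martinotti. Pou3f2, a POU-domain transcription factor, was at 118, 89.4, 108 and 181 CPM, 20.7 times Martinotti. Ntn1, the guidance protein netrin-1, was at 132, 93.2, 126 and 92.3 CPM (111 ± 21.0), 12.3 times upper chandelier cells. In all 3 genes the lowest long-projecting animal was above the highest other replicate, which was 4.98, 12.0 and 12.5 CPM.

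Besides Chodl and Nos1 above, 6 more of the leading genes were Rasgef1b (221 CPM, an exchange factor of small GTPases), Tppp3 (57.4 CPM, a tubulin-binding protein), Nnat (an endoplasmic reticulum proteolipid), Bace2 (72.4 CPM, a protease), Prex1 (90.6 CPM, a Rac exchange factor) and Ptn (263 CPM, the growth factor pleiotrophin), 7.80 to 17.9 times the next type. In 9 of the 13 genes given here the nearest replicate was Martinotti animal 1, the exceptions being Slc7a3, Ntn1, Tppp3 and Nos1, and animal 2 was much lower: Rasgef1b was at 24.7 CPM in animal 1 and 0 in animal 2, Nnat at 40.0 and 0.372, and Ptn at 60.8 and 6.70. Ntn1 was at 5.49 and 7.44 CPM. Against Martinotti cells alone, only Slc7a3 and Ntn1 of the 13 were called (adjusted p = 0.0121 and 0.00310, edgeR quasi-likelihood test, Benjamini-Hochberg). The others ran from 0.0575 for S100a10 to 0.221 for Bace2. All these calls against the mean of the types held in each fit that left out a replicate.

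**Figure D2:**
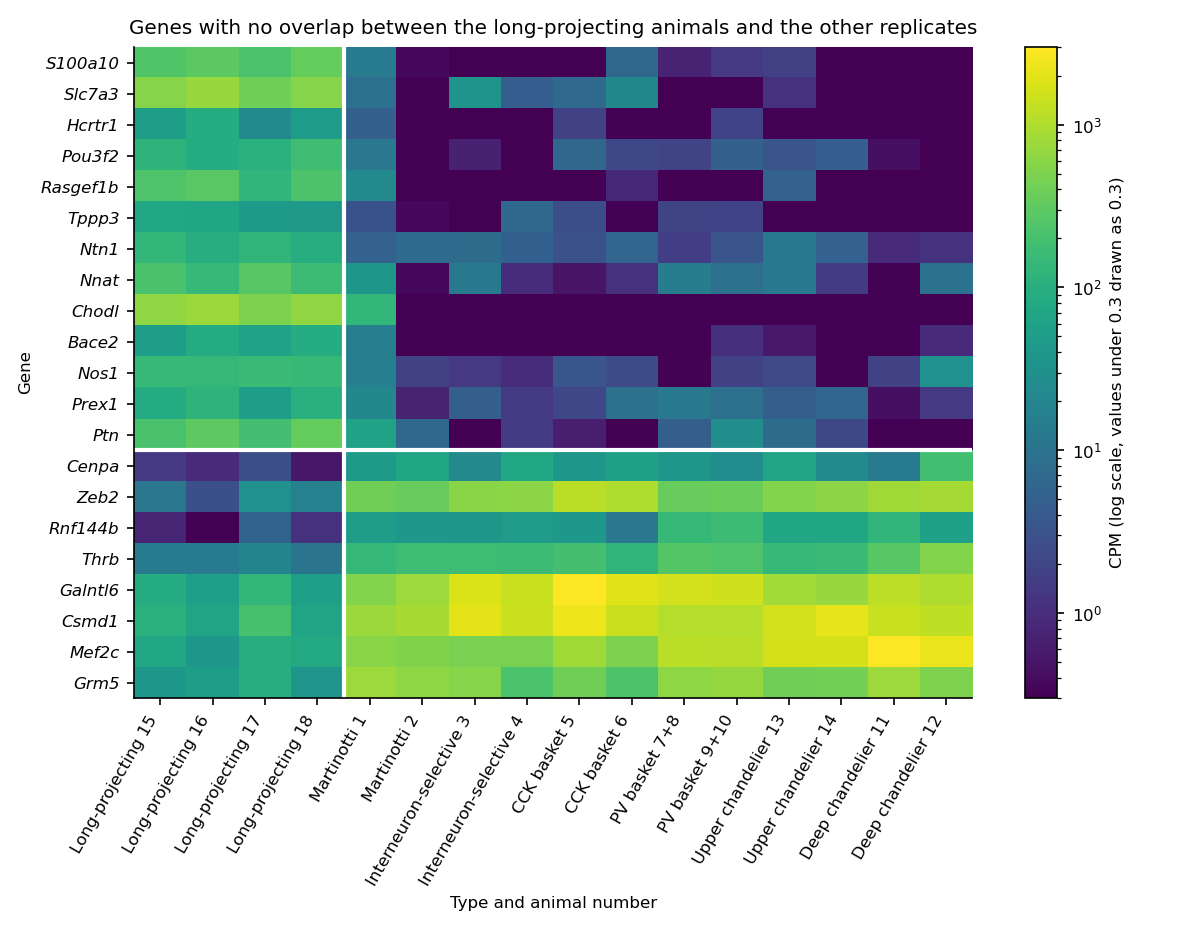
Level of the leading genes in each of 16 replicates, as colour in CPM on a log scale; the 13 genes above the white line were higher and the 8 below it lower in long-projecting cells than in the mean of the other types. By the rule that chose the genes, no long-projecting animal overlaps another replicate. Martinotti animal 1 is the nearest column for most genes of the upper block.

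On the lower side the same rule took only genes in which every replicate of the other types lay above the 4 animals. Zeb2, a zinc-finger transcription factor of migrating interneurons, was at 11.8, 2.84, 31.6 and 17.0 CPM (15.8 ± 12.1) while no other replicate was below 358 CPM, and the mean of the types, 641 CPM, was 40.6 times higher (adjusted p = 6.28e-06, edgeR quasi-likelihood test, Benjamini-Hochberg). Mef2c, a transcription factor of activity-dependent gene expression, was at 72.0, 39.0, 91.7 and 81.8 CPM (71.1 ± 22.9) against 465 CPM or more in each other replicate. Grm5, the metabotropic glutamate receptor mGluR5, was at 40.0, 49.7, 92.7 and 36.6 CPM (54.7 ± 25.9) against 220 CPM or more. The groups lay far apart in all 3 genes.

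The other 5 lower genes were Cenpa (1.42 CPM, the centromeric histone H3 variant, 39.1 times lower than the mean of the types), Rnf144b (1.87 CPM, a ubiquitin ligase, 38.6 times), Galntl6 (82.0 CPM, a relative of the enzymes that start O-glycosylation, 16.5 times), Thrb (14.2 CPM, a thyroid hormone receptor, 15.1 times) and Csmd1 (111 CPM, a large membrane protein with complement-control domains, 13.0 times). All 8 were also called lower than Martinotti cells, with both Martinotti animals and without either of them. Zeb2 was 24.1 times, Mef2c 7.73 times and Grm5 12.9 times lower here than in Martinotti cells, the other type marked by Sst.

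Only 45 genes (0.290%) were called higher than each of the other 6 types in separate tests, and this count was 40 without library 2, 13 without Martinotti animal 2 and 12 without upper chandelier animal 14. Among them Npy, Slc7a3 and Ntn1 were described above. Pam, the enzyme that amidates peptide ends, was at 3083, 3537, 2846 and 3046 CPM (3128 ± 292), 3.06 times upper chandelier cells. Kcnv1, a silent potassium channel subunit, was at 33.9, 43.8, 38.7 and 46.6 CPM (40.7 ± 5.58), 25.1 times CCK basket cells. Col11a1, a collagen chain, was 7.39 times PV basket cells at 69.4 CPM, and Ndst4, a heparan sulphate sulphotransferase, 6.30 times Martinotti at 106 CPM. P2rx2, an ATP-gated channel, was at 8.04, 15.8, 11.2 and 7.46 CPM, with 1 count in all other types together. Also in the 45 were the growth-cone protein Gap43, the tubulin genes Tuba1a, Tuba1b, Tubb2a, Tubb2b and Tubb4b, and Stmn2, a tubulin-binding protein of growing axons.

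Of 30 neuropeptide precursors tested, 11 were higher and 3 lower than the mean of the types, with a median log2 difference of 0.42 beside 0.05 over all genes tested. That median averages the log2 ratios of the type means, with means under 3 counts set to that floor. Without library 2 the counts were 10 and 3. Against CCK basket and deep chandelier cells alone, the types from males, they were 7 and 5, beside 1198 and 763 over all 15533 genes tested. Penk, the enkephalin precursor, was at 1002, 949, 766 and 635 CPM (838 ± 169), with interneuron-selective cells next at 574 CPM, and its call was lost against the types from males (adjusted p = 0.0523, edgeR quasi-likelihood test, Benjamini-Hochberg). Cort, the precursor of the somatostatin relative cortistatin, was at 129, 351, 71.9 and 191 CPM (186 ± 120) with Martinotti next at 68.7 CPM, and its lowest animal overlapped the highest other replicate, at 114 CPM. Rln1, the relaxin precursor, was at 32.6, 35.9, 11.5 and 37.3 CPM, with 20 counts in Martinotti cells, 1 in interneuron-selective cells and 0 elsewhere.

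Scg2, the granin secretogranin II, was at 1118, 1322, 1084 and 1176 CPM (1175 ± 105), below 1274 CPM in upper chandelier cells, so its call rests on other types, and it was lost against the types from males (adjusted p = 0.147, edgeR's quasi-likelihood test). Vgf, another granin, was called higher than the mean at 390 CPM but stood at 1177 CPM in Martinotti cells, from which it was lower. The 3 lower precursors were Cck, cholecystokinin, at 7.45 CPM against 10.1 to 2059 CPM in the other types, Crh, corticotropin-releasing hormone, at 0.490 CPM, all of it from library 2, against 4.55 to 3689 CPM, and Pnoc, prepronociceptin, at 0.955 CPM against 11.0 to 325 CPM. For Cck and Pnoc the Martinotti animals reached as low as 0.372 and 0 CPM, so those groups overlap. Crh and Pnoc could not be fitted once a left-out replicate (deep chandelier animal 12, Martinotti animal 2) put a type at 0.

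The 100 bases before the RefSeq start sites of the peptide genes are shown for 4 of them, Sst and Scg2 because they hold the motif described here, Npy for its level and Cort as a relative of Sst; capitals mark the cAMP response element TGACGTCA, which reads the same on both strands. Of the 11 precursors called higher, 9 matched the RefSeq promoter table of build GRCm38.p6 by symbol, and the element was found in 2, Sst and Scg2, with its first base at -48 and -68 from the start. It is present in 379 of 32851 promoters (1.15%) cut to the same length. The windows lie at chr16:23890845-23890944 (Sst, minus strand), chr1:79440027-79440126 (Scg2, minus), chr6:49822610-49822709 (Npy, plus) and chr4:149126764-149126863 (Cort, minus), each written 5′ to 3′ along its gene. A match describes these letters and no binding was measured.
Sst: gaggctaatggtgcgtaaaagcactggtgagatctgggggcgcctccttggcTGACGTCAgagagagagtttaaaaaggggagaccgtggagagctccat
Scg2: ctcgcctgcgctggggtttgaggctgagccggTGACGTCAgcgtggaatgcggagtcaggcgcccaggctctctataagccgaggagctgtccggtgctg
Npy: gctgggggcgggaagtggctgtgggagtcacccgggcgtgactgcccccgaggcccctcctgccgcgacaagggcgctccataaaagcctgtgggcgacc
Cort: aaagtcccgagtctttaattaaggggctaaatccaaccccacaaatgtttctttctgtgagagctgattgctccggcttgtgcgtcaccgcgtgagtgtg

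Genes of peptide processing and dense-core vesicles were higher in 7 and lower in 2 of 23 members tested (median 0.22; 6 and 2 without library 2). Besides Pam, 3.71 times the mean of the types (adjusted p = 1.06e-06, edgeR quasi-likelihood test, Benjamini-Hochberg), Pcsk2, a prohormone convertase, was at 385, 433, 276 and 446 CPM against a mean of 161 CPM, a call lost against the types from males. Syt5, a vesicle calcium sensor, was at 113, 125, 82.4 and 117 CPM, above all 12 other replicates, whose highest was 63.7 CPM. Ptprn, a dense-core vesicle membrane protein, was at 274 CPM, with CCK basket and Martinotti cells next at 182 and 180 CPM. Rab27b and Cadps2, which serve vesicle docking and priming, were lower, at 36.2 and 21.6 CPM against means of 111 and 72.4 CPM.

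Peptide receptors were higher in 10 and lower in 1 of 42 members tested, with a median log2 difference of -0.11, so most of the family was not above the other types; the counts were 9 and 4 against the types from males. Against Martinotti cells 0 members passed in either direction by the edgeR test (7 higher and 5 lower at an unadjusted p under 0.05), 0 and 1 without library 2. Over all genes tested that comparison called 2.11% higher and 1.80% lower, so few of 42 members would pass at that rate. DESeq2 called 2 higher and 1 lower. Tacr1, Oxtr and Hcrtr1 led by level. Oprl1, the nociceptin receptor, was at 44.5, 28.9, 34.7 and 39.0 CPM (36.8 ± 6.63), above every other replicate (highest 19.1 CPM). The other orexin receptor, Hcrtr2, was the lower member, at 2.12 CPM against a mean of 13.2 CPM, a call lost without long-projecting animal 15, 16 or 17 (adjusted p up to 0.0752, edgeR's quasi-likelihood test). Ntsr1 and Nmur2, receptors of neurotensin and neuromedin U, had counts in long-projecting cells only, but at 2.66 and 1.33 CPM and with an animal at 0 each; DESeq2 called neither.

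**Figure D3:**
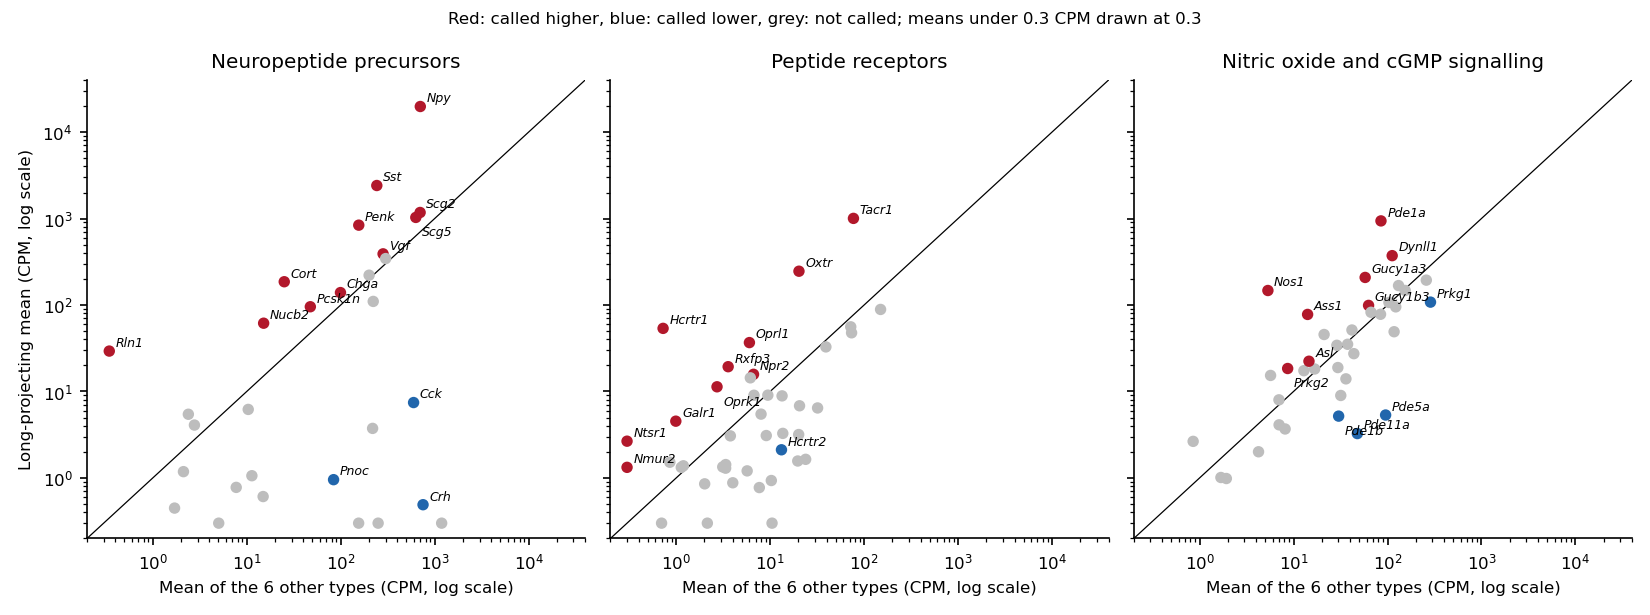
Mean level in long-projecting cells against the mean of the 6 other types, both in CPM on log axes, for every tested member of 3 lists; the line marks equal levels, red points were called higher and blue points lower. Npy, Tacr1 and Pde1a are the highest members above the line in the 3 panels, at 19749, 1004 and 939 CPM.

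In nitric oxide and cGMP signalling, 8 of 38 members were higher and 4 lower (median 0.27). Pde1a, a calmodulin-dependent phosphodiesterase, was at 1013, 1094, 719 and 929 CPM (939 ± 161), 11.0 times the mean of the types, with Martinotti cells at 409 CPM and the other types at 64.8 CPM or less (adjusted p = 2.87e-09, edgeR quasi-likelihood test, Benjamini-Hochberg). Ass1, which with Asl remakes arginine from citrulline, was at 93.4, 90.3, 61.1 and 66.5 CPM (77.8 ± 16.4), 3.33 times CCK basket cells and above every other replicate (highest 28.5 CPM). Gucy1a3, the alpha subunit of soluble guanylate cyclase, was at 202, 199, 201 and 231 CPM (208 ± 15.1), 1.75 times PV basket cells and 11.8 times Martinotti cells. The 4 animals lay above every other replicate, whose highest was 119 CPM.

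Its beta subunit Gucy1b3 was at 92.8, 110, 95.1 and 98.0 CPM (99.0 ± 7.64), below 126 CPM in upper chandelier cells, and its call was lost in 7 of 16 fits that left out a replicate, among them each fit without 1 of the long-projecting animals (adjusted p up to 0.130, edgeR's quasi-likelihood test). The cGMP-dependent kinases went opposite ways: Prkg1 was lower, at 108 CPM against a mean of 287 CPM, and Prkg2 higher in the log average, at 18.4 CPM, though Martinotti (18.8 CPM) and PV basket cells (28.9 CPM) were as high. The 3 lower phosphodiesterases of the list, which degrade cGMP, were Pde5a at 5.34 CPM (17.9 times under the mean of the types), Pde11a at 3.26 CPM (14.7 times) and Pde1b at 5.19 CPM (5.82 times). Martinotti cells were low in the same 3, at 9.63, 8.21 and 8.25 CPM, and none of the 3 was called between these 2 types (lowest adjusted p 0.268, edgeR's quasi-likelihood test).

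Of axonal cytoskeleton and transport genes, 12 of 34 were higher and 1 lower (median 0.42), and 12 and 1 also by DESeq2 and against the 4 types from animals of postnatal 32 to 40. Gap43 was at 1219, 1726, 1218 and 1481 CPM (1411 ± 244), 2.45 times deep chandelier cells and above every other replicate (highest 808 CPM). Its adjusted p against the mean of the types was 1.46e-06 (edgeR quasi-likelihood test, Benjamini-Hochberg). Tuba1a, the neuronal alpha-tubulin, was at 6862, 7411, 6232 and 7551 CPM (7014 ± 600) against at most 3620 CPM in any other replicate. Stmn2 was at 1257, 1397, 1056 and 1352 CPM (1266 ± 152) against at most 619 CPM. All 3 genes were well apart from the other types, though tubulin genes are near-identical copies whose reads the counting may have split.

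The animals were younger here than in any other type, so age and type cannot be told apart for this list. Postnatal 32 to 40 is the nearest the other types come. Of all genes tested, 2.11% were higher and 1.80% lower than in Martinotti cells. Against Martinotti cells 7 members were higher and 1 lower, 6 and 0 without library 2, 5 and 0 without Martinotti animal 1 and 1 and 1 without animal 2. Nefm, the medium neurofilament, was called higher in the log average although its level of 11.8 CPM was under 94.5 CPM in Martinotti and 74.0 CPM in PV basket cells, and 12 of 16 fits without a replicate lost that call, as did the fit without library 2. Ank3, the ankyrin of the axon initial segment, was the lower member, at 267 CPM, and 9 of those fits lost it.

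Of 47 synaptotagmins and release proteins, 13 were higher and 1 lower (median 0.41), and 9 and 6 against the types from males. Sv2b, a synaptic vesicle glycoprotein, was at 59.0, 82.8, 65.7 and 32.3 CPM, 5.24 times upper chandelier cells and above all other replicates (highest 12.7 CPM). Rab3b, a vesicle GTPase, was at 553 CPM, close to Martinotti cells at 527 CPM and far from the 22.5 to 163 CPM of the remaining types. Syt6, a synaptotagmin, was at 40.8, 36.7, 84.0 and 14.8 CPM, and its lowest animal lay under the highest other replicate, at 17.6 CPM in CCK basket cells.

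**Figure D4:**
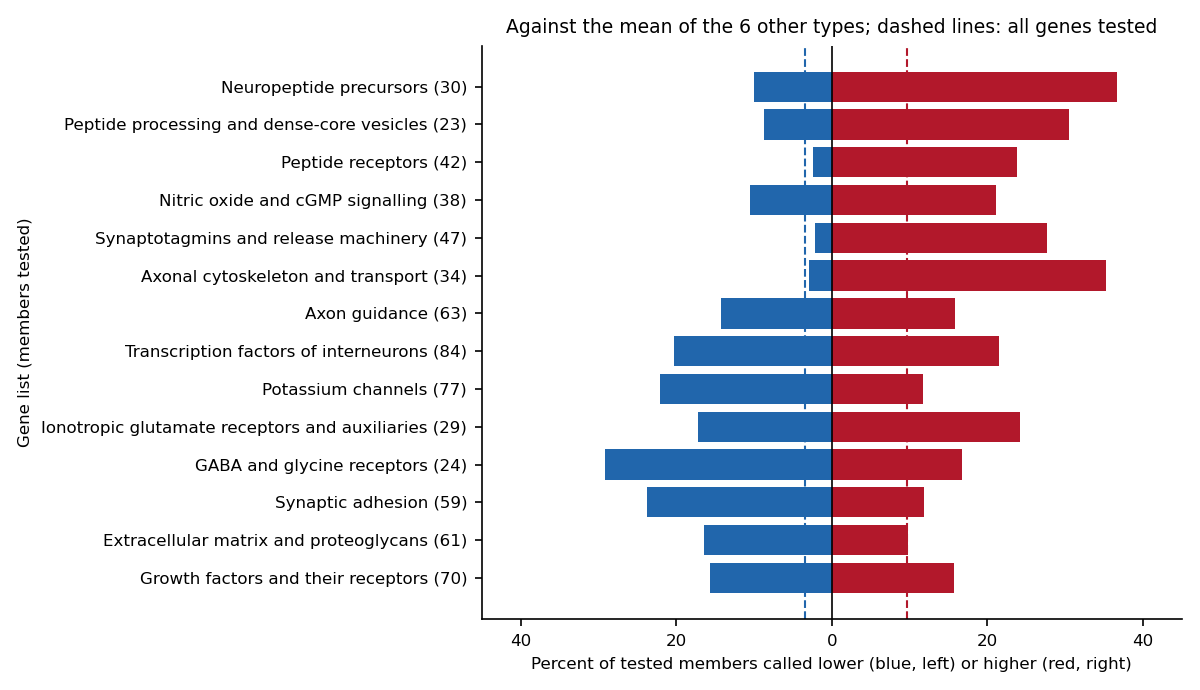
Percent of tested members of 14 gene lists called higher (red, right) or lower (blue, left) than the mean of the other types; dashed lines mark 9.71% and 3.40%, the shares of all genes tested. Neuropeptide precursors and axonal cytoskeleton have the longest red bars and GABA and glycine receptors the longest blue bar of those shown.

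Of 8 genes shared by GABAergic neurons, 2 were higher and 3 lower. Gad1, which makes GABA, was at 2089, 3109, 1718 and 3093 CPM (2502 ± 708), 2.04 times the mean of the types and overlapping with deep chandelier cells (highest 2366 CPM). Slc5a7, the choline transporter of cholinergic terminals, was at 95.1, 165, 47.7 and 130 CPM (110 ± 50.2), with 37.8 CPM in interneuron-selective and 10.5 CPM in CCK basket cells and no count in the other 4 types. It had a count in 134 of 136 cells and in 0 of 127 PV basket cells (Wilson upper bound 2.94%).

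The partners of choline uptake were near the floor. Chat, which makes acetylcholine, had 5 counts in 4 of 136 cells (0.202 ± 0.233 CPM), as in 4 of 127 PV basket cells, and Slc18a3, the vesicular acetylcholine transporter, had 0, under a floor of 0.152 CPM for 3 counts. Interneuron-selective cells had 27.1 ± 36.4 and 20.7 ± 29.3 CPM of the 2 genes (SD, n = 2), so their 2 animals lay far apart. Chrm2, a muscarinic receptor, was at 296, 193, 243 and 235 CPM (242 ± 42.3), 9.71 times the mean of the types and above every other replicate (highest 72.0 CPM), whereas Chrm3 was lower, at 103 CPM against a mean of 305 CPM.

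Genes of the medial ganglionic eminence, where Sst and Pvalb neurons are born, were higher in 4 of 8 and lower in 3. Sox6 was at 462, 455, 562 and 524 CPM (501 ± 51.0), 1.54 times Martinotti cells, and Lhx6 was called higher in the log average at 120 CPM, under 206 CPM in upper chandelier cells, since it is at 0 in both types marked by Vip. The lower members included Maf, at 40.2 CPM against 63.5 to 313 CPM, and Erbb4, the neuregulin receptor, at 79.8 ± 40.1 CPM against 1551 CPM or more in 5 types, with only Martinotti cells as low at 40.5 CPM. Adarb2, of caudally born neurons, was at 44.7 CPM, near the 33.9 to 48.6 CPM of PV basket and Martinotti cells and far from 6756 CPM in CCK basket cells.

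Transcription factors of interneurons held 18 higher and 17 lower of 84, beside 9.71% and 3.40% of all genes tested. The list was chosen with earlier results of these data known, so its shares are not a test of the family. The counts were 18 and 18 without library 2, 18 and 27 by DESeq2 and 14 and 19 against the types from males. Besides Pou3f2, Zeb2 and Mef2c above, Sp9 was at 182, 188, 176 and 183 CPM (182 ± 4.98), with deep chandelier cells at 217 CPM, and Id1, an inhibitor of helix-loop-helix factors, at 47.1, 70.9, 9.92 and 28.2 CPM against at most 6.18 CPM. The call of Sp9 was lost against the types from males. Nfib, a nuclear factor I, was lower at 13.9 CPM, in the same range as Martinotti cells (17.4 CPM) and under 432 CPM or more in interneuron-selective, CCK basket and chandelier cells. Against Martinotti cells 0 members were higher and 11 lower by edgeR's quasi-likelihood test (11 and 21 at an unadjusted p under 0.05), beside 2.11% and 1.80% of all genes tested. DESeq2 called 7 and 15, and the edgeR counts were 1 and 10 without library 2. Maf, Zeb2 and Mef2c were among the 11.

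Potassium channels had 9 higher and 17 lower of 77 (median -0.45), and 9 and 18 without library 2. Over all genes tested the shares were 9.71% and 3.40%, so the share of higher channels was near that of all genes. Among the higher was Kcnmb4, a subunit of BK channels, at 201, 188, 191 and 194 CPM (194 ± 5.34), above every other replicate (highest 88.9 CPM). Kcnc1, the channel of fast-spiking cells, was lower at 77.3 ± 17.0 CPM against a mean of 283 CPM. Cacna1e, the R-type calcium channel, was higher, at 253, 311, 277 and 331 CPM (293 ± 34.8), 3.32 times Martinotti cells.

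GABA and glycine receptors had 4 higher and 7 lower of 24 (median -0.46). Gabrg1 was at 180, 280, 108 and 261 CPM (208 ± 79.0), and Gabra2 at 105 CPM, while the subunit Gabrb2 was at 22.6 CPM, 16.9 times under the mean of the types. Martinotti cells were as low in Gabrb2, at 22.8 CPM. Ionotropic glutamate receptors had 7 higher and 5 lower of 29, but 2 and 2 against the types from males and 4 and 7 against types of postnatal 32 to 40. Grik1, a kainate receptor, was at 669, 770, 639 and 627 CPM (676 ± 65.3). Of all genes tested, 2.11% were higher and 1.80% lower than in Martinotti cells. Against Martinotti cells 0 were higher and 8 lower by edgeR's quasi-likelihood test (3 and 12 at an unadjusted p under 0.05; DESeq2 called 1 and 11), and the edgeR count of lower members was 4 without Martinotti animal 1 and 1 without animal 2.

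Synaptic adhesion genes had 7 higher and 14 lower of 59 (median -0.42). Over all 15533 genes tested the shares were 9.71% and 3.40%, so the share of higher adhesion genes was near that of all genes. The all-gene counts were 1572 and 1093 by DESeq2, and 1198 and 763 against the types from males. Nlgn1, a neuroligin of excitatory synapses, was at 130, 155, 140 and 160 CPM (146 ± 13.8), below every other replicate (lowest 365 CPM; adjusted p = 4.98e-06, edgeR quasi-likelihood test, Benjamini-Hochberg). Cntnap2, an axonal neurexin relative, was at 262, 223, 289 and 196 CPM (243 ± 41.2) against at least 334 CPM. Growth factors and their receptors had 11 higher and 11 lower of 70, 11 and 16 by DESeq2 and 8 and 16 against the types from males, with Ptn, Sfrp1 (173 CPM, a secreted Wnt antagonist) and Wnt2 (87.8 CPM) higher. Axon guidance genes had 10 higher, Ntn1 among them, and 9 lower of 63 (median 0.01), 10 and 8 without library 2 and 9 and 12 by DESeq2. Monoamine receptors had 4 higher and 1 lower of 23 (median 0.32), 5 and 1 without library 2, but 1 and 2 against the types from males. Of these Htr1a, a serotonin receptor, was at 65.5, 50.8, 58.0 and 89.5 CPM, its lowest animal under a Martinotti animal at 52.8 CPM.

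Among genes that differed most from Martinotti cells, Slc5a7 had no count in either Martinotti animal, at least 311 times less (adjusted p = 0.00174, edgeR quasi-likelihood test, Benjamini-Hochberg), and the call held without either animal. Sc5d, a sterol desaturase, was at 95.5, 83.0, 59.5 and 104 CPM against 0.858 and 0.372 CPM, 139 times higher. Lower here were Reln, the extracellular protein reelin, at 16.1, 19.6, 40.6 and 28.0 CPM against 775 and 1186 CPM (37.6 times), Crh, with counts in library 2 only, Hpse, the heparan sulphate-cutting heparanase (104 times), and Rara, a retinoic acid receptor (58.6 times). Apart from Reln, these genes were chosen for having no overlap between animals of the 2 types, and Reln had none either. Crh, Hpse and Rara kept their calls without either Martinotti animal.

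Rasl11a, a small GTPase (306 times lower), had 422 CPM in Martinotti animal 1 and 46.9 CPM in animal 2, and Igsf3, an immunoglobulin-domain protein (155 times lower), 111 and 172 CPM. Clic1, Nptx1, Cbln2 and Adamts16 were also among the leading higher genes, but Clic1 lost its call without Martinotti animal 2 (adjusted p = 0.0757) and the other 3 lost it without either animal (0.0571 to 0.214, edgeR's quasi-likelihood test). Xist, the RNA of the inactive X chromosome, had 2 counts in these male cells and 193 CPM in the female Martinotti cells, as the labels give the sexes.

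Upper chandelier cells, on the same flow cell, differed in 313 genes higher (2.02%) and 320 lower (2.06%) in long-projecting cells. These counts were 312 and 284 without library 2 and fell to 87 and 157 without upper chandelier animal 13 and 48 and 125 without animal 14. Sst was at 0.550 CPM in these chandelier cells against 2409 CPM here (adjusted p = 4.43e-07, edgeR quasi-likelihood test, Benjamini-Hochberg). Pthlh, parathyroid hormone-like hormone, had 1 count in long-projecting cells and 541 CPM in upper chandelier cells, Krt12, Ibsp and Cox6a2 had 1 count each against 111, 101 and 66.8 CPM, and Tcap had 0 against 72.8 CPM, at least 480 times lower. Pcdh18, a protocadherin, had no count in upper chandelier cells and 152 CPM here, at least 381 times higher, but it and Chodl, S100a10, Penk and Nos1 lost their calls without either upper chandelier animal (adjusted p up to 0.219 over the 5, edgeR's quasi-likelihood test), as did Slc7a3 without animal 14 (0.0764), and Ibsp without animal 14 or long-projecting animal 15 (up to 0.0735) and with DESeq2.

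Between the 4 long-projecting animals, with libraries as the units, 9 of 13053 genes (0.0689%) differed, and 982 had an unadjusted p under 0.05. Calb2, the calcium-binding protein calretinin, was at 110, 311, 53.0 and 327 CPM, high in animals 16 and 18 and low in 15 and 17 (adjusted p = 0.0296, edgeR quasi-likelihood test, Benjamini-Hochberg). Its 9 libraries ran from 49.5 to 404 CPM with a median of 143 CPM, and a count was found in 133 of 136 cells. Cort was likewise higher in animals 16 and 18, at 129, 351, 71.9 and 191 CPM (adjusted p = 0.0494, same edgeR test). Pde4d, a cAMP phosphodiesterase, set animals 15 and 16 (324 and 303 CPM) below 17 and 18 (653 and 733 CPM; adjusted p = 0.0161, same edgeR test). Gad1 also had its highest levels in animals 16 and 18 but was not called (adjusted p = 0.103, same edgeR test), and without library 2 the count was 3 genes.

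**Figure D5:**
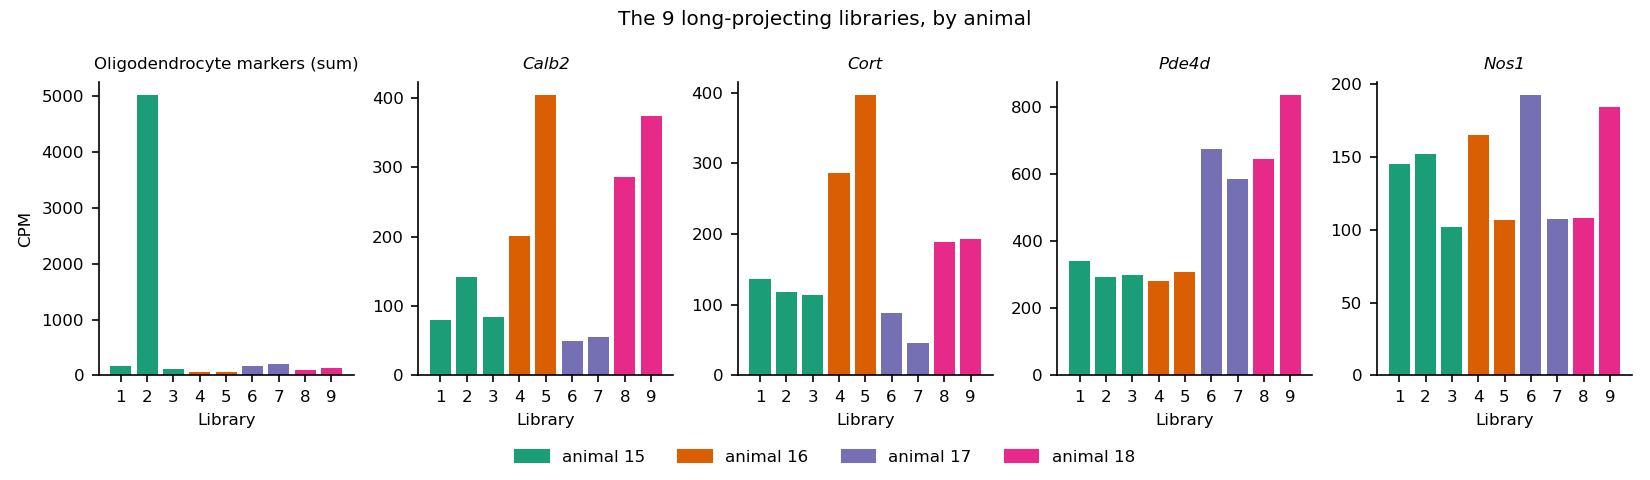
Level in each of the 9 long-projecting libraries, in CPM, coloured by animal, for the summed oligodendrocyte markers and 4 genes. Library 2 alone is high in oligodendrocyte markers, at 5013 CPM, every library of animals 16 and 18 lies above those of 15 and 17 in Calb2 and Cort, those of 17 and 18 lie above those of 15 and 16 in Pde4d, and Nos1 runs from 102 to 192 CPM over the libraries.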

How the data were processed

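The deposited table holds 1 value per gene and cell for 23335 genes. Its values are expected counts made by the authors, who per the submitters' processing notes used Bowtie 0.12.7 and the mouse build mm9; the counting tool is not named in the labels, and 3.97% of the long-projecting values above 0 are not whole (tolerance 1e-06), so sums over the cells of an animal were rounded. PV basket animals 7 and 8, and 9 and 10, were merged, which left 16 replicates; 3813 genes had no count. The main test was edgeR 4.0.16 (TMM scaling, its low-count filter, robust quasi-likelihood F-test, R 4.3.3) over all 7 types, which share 1 estimate of spread; p-values compare animals (libraries, between the 4 long-projecting animals). The coefficient of variation between replicates was 61.7%. For 142 of the genes tested the contrast against the mean had no finite value and no test result is given. They stay among the 15533 genes and in the lists as not called, so a difference in them could not be counted.

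The floor is 3 counts over a type, 0.152 CPM in long-projecting cells, and Wilson intervals (95%) and floors cover counting error only. Members and gene lists were chosen with earlier results of these data known. Named genes were the 6 markers, up to 14 higher and 8 lower genes with no overlap between animals and at least 50 CPM, up to 6 per side against Martinotti and upper chandelier cells, and the leading members of each list; other members named were chosen after their values were seen. Alternatives were DESeq2 1.42.0, limma 3.58.1 with a spread for each type, other scaling, filters and replicates, and 3 chosen after seeing the data (types by age, types by sex, lists without Martinotti animal 1). The scripts were tested on counts simulated with the estimated spread. Changes of 4-fold and 8-fold were called in 55% and 82% of changed genes against the mean of the types. Against Martinotti cells the shares were 11% and 44%, against upper chandelier cells 13% and 51%, and between animals 65% and 88%. A gene not called may therefore still differ. Promoters are RefSeq, GRCm38.p6, matched by symbol only, since the table is on mm9. Some results are not reported here.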

Additional observations from a re-analysis of the deposited data

Results flagged for a closer look

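Of 69 genes and marker sums examined over the 9 long-projecting libraries, 17 had 1 library far from the others. The limit used gives about 1 in 20 such groups by chance for normally distributed values, which levels near 0 are not. A gene with 1 count over the 9 libraries passes it whatever the library, so the 17 cannot be set against that rate. Library 2 held 5013 CPM of summed oligodendrocyte markers against 200.2 CPM in the next library, and 103.9 CPM of oligodendrocyte precursor markers against 23.1 CPM. Vip and Crh were at 2.735 and 4.559 CPM in library 2 and at 0 in every other library. Ibsp was at 0.4559 CPM there, the level of a single count. Library 7 was highest in 4 genes that are low in long-projecting cells, with Csmd1 at 277.8 CPM against 150.5 CPM in the next library, Grm5 at 138.9 against 60.5 CPM, Rnf144b at 12.82 against 5.38 CPM and Cenpa at 4.986 against 1.83 CPM. The same library had the highest sum of caudal eminence markers, 136.1 CPM against 83.8 CPM.

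Hcrtr1 was at 114.5 CPM in library 4 and at most 61.4 CPM in the others. Rasl11a stood at 8.064 CPM in library 3, Igsf3 at 4.9 CPM in library 8 and Rara at 9.486 CPM in library 6, all genes low in these cells. Pthlh at 0.3127 CPM in library 9, Krt12 at 0.4581 CPM in library 4 and Cox6a2 at 0.527 CPM in library 6 are each the level of a single count.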

How the results depend on the processing

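Of the 2036 genes called against the mean of the types, the count was 1737 to 2683 under DESeq2, other scaling, either filter, 18 labelled animals, without library 2 and against types by age or sex, 3264 with a spread for each type, and 1160 to 2671 without 1 replicate. Against Martinotti cells the 607 calls became 1773 with DESeq2, 1195 with 18 labelled animals and 1900 with only the 2 types, and 186 (without Martinotti animal 2) to 1140 without 1 replicate; the split with a spread for each type was 248 higher and 430 lower, beside 327 and 280. Against upper chandelier cells the 633 calls became 1271 with DESeq2, 1925 with a spread for each type and 2299 with only the 2 types, and 173 (without upper chandelier animal 14) to 912 without 1 replicate. The 45 genes above each type ran from 12 to 62 without 1 replicate. Between animals the 9 genes became 57 with no filter, 170 with DESeq2 and 3 without library 2, and 2 to 19 without 1 library. The cause of these moves was not tested. Rgs8, Pde4b and Adcy2, called higher, turned to log2 changes of -0.83, -0.25 and -0.53 against types of postnatal 32 to 40 and -0.67, -0.72 and -0.16 against types from males, none of them called. Depth limits genes near the floor of 3 counts. No paired analysis was possible because counts were summed per animal and each animal number occurs in 1 type only.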
